A study of Mus musculus with 62 samples.

Results

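The genes described here are 49 mouse transcription factors that build organs other than blood, among them the Pax, Sox, Lhx, Tbx, Nkx, Dlx and Irx families, and that are familiar targets of Polycomb repression. They were chosen from a list of 50 symbols, of which 1, written Simx1, matched no gene of the GENCODE M21 annotation of mm10 and was left out. Each locus was taken as the gene body with 5 kb on either side, which gave loci of 11.7 to 124 kb (median 16.9 kb) on 16 autosomes and 1494 kb in all. Across 14 tables of differential sites the loci held 1711 of 1743368 listed sites, and each of the 49 loci held at least 8.

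Chromatin was profiled by CUT&Tag, in which an antibody-tethered transposase cuts and tags DNA beside its target, in haematopoietic stem and progenitor cells (HSPCs) from the bone marrow of C57BL/6 mice, bead-enriched as cells without lineage markers and with c-Kit. All animals carried 1 Cre allele (Cre +/-) driven by the interferon-responsive Mx1 promoter and were injected with pI:pC to induce it, so that the controls had Cre and the injection too. The groups were Daxx +/+ Cre +/- (wild type, WT), Daxx F/F Cre +/- (Daxx-KO) and, for the double knockout (DKO), Daxx F/F together with Pu.1 F/F on Cre +/-, sampled at 3, 8 or 24 weeks post injection (w.p.i.). The labels give no age for single animals. Daxx is a chaperone of the histone variant H3.3, Pu.1 is a master transcription factor of myeloid and lymphoid cells, Mx1-Cre also recombines in other interferon-responsive tissues, and the beads enrich progenitors without purifying stem cells. Each group had 2 libraries at 3 and 24 w.p.i. and 3 libraries at 8 w.p.i., and each library of a mark came from a mouse of its own.

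Polycomb repressive complex 2 trimethylates lysine 27 of histone H3 (H3K27me3) over CpG-rich start regions of developmental regulators, and complex 1 binds the mark through its CBX subunits. In blood progenitors this keeps the master genes of brain, heart, kidney, muscle and gut silent. The same lysine carries acetylation (H3K27ac) at active promoters and enhancers, so the marks exclude each other on a given histone tail, whereas H3K9me3 is the mark of heterochromatin and silenced repeats. Daxx deposits H3.3 at heterochromatin together with ATRX.

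The stretches printed here are the 250 bases before a RefSeq transcript start (assembly GRCm38.p6) at 6 of the members, each lying whole inside a differential site described in the text. They are shown because the member promoters were CpG-rich: 44 RefSeq promoters of 34 members held a median of 15.5 CpG in these 250 bases (range 4 to 30), against 6 over 32817 promoters of all genes. Pax9 and Dlx2 stand for sites of H3K27me3, Foxd3 and Sox21 for H3K27ac, and Tbx1 and Lhx4 for H3K9me3. The Pax9 and Lhx4 stretches precede transcript starts that lie inside the gene, downstream of the gene start from which distances were measured. Each runs 5′ to 3′ on the strand of its gene, and capitals mark the CpG dinucleotides.
Pax9 chr12:56695221-56695470 (+ strand): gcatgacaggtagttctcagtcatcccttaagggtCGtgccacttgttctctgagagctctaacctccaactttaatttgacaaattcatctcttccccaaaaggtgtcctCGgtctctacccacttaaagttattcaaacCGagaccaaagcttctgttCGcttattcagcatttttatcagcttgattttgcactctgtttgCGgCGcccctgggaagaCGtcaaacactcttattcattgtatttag
Dlx2 chr2:71546755-71547004 (- strand): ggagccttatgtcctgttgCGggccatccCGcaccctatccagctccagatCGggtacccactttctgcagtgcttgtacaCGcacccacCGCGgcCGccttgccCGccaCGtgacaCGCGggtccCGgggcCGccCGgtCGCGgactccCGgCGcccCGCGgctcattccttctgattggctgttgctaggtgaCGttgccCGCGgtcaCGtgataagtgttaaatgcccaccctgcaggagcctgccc
Foxd3 chr4:99656049-99656298 (+ strand): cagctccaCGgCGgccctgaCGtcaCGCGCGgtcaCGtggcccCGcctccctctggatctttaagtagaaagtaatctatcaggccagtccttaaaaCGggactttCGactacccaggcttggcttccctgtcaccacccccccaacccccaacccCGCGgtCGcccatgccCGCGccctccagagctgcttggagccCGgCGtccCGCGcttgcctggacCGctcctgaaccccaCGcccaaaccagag
Sox21 chr14:118237031-118237280 (- strand): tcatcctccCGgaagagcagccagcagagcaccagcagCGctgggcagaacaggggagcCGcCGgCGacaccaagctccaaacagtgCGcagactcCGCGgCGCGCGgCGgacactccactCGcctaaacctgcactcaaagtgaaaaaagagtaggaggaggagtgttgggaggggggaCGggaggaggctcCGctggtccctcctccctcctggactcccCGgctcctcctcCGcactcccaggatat
Tbx1 chr16:18590672-18590921 (- strand): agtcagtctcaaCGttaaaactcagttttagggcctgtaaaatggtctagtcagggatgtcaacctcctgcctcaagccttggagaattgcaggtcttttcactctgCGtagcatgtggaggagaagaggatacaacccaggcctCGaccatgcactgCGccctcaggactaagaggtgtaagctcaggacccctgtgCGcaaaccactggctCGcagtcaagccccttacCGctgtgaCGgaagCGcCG
Lhx4 chr1:155742028-155742277 (- strand): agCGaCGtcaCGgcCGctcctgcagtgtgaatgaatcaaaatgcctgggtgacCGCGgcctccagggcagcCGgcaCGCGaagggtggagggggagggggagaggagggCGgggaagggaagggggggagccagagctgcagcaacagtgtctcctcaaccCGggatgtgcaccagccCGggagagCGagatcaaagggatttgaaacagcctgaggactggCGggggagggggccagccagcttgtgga
The Pax9 stretch held 7 CpG, near the median of 6 over promoters of all genes. Tbx1 held 10, Lhx4 14, Sox21 17, Foxd3 21 and Dlx2 24.

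The values given for each site are read counts that the study's caller, diffReps, had divided by 1 constant per library, called normalized counts here. Because the tables list only sites that the caller had already passed, no second test was run on them, and a site was called higher or lower when every library of the first group lay above or below every library of the other. A gap of this kind reaches at best a two-sided exact permutation p of 0.333 with 2 libraries a group and 0.1 with 3, so no single site is significant by itself. Counts over the members were therefore read against the same count over all listed sites of the table. Wilson 95% intervals beside percentages cover counting error only, since sites of a locus share libraries and neighbours. A locus without a listed site has not been shown to be unchanged.

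Mean reads per 600-base window lay between 3.97 and 10.3 in the 24-week libraries, between 0.2 and 3.29 in the 8-week libraries and between 1.21 and 33.8 in the 3-week libraries, so that the 24-week libraries carry the most evenly covered comparison. At 24 w.p.i. all 5 targets were profiled in the same 2 Daxx-KO and 2 WT mice, and the marks are thus not independent samples. Libraries that stood apart over the member sites were DKO replicate 1 of H3K27me3 at 8 w.p.i., WT replicate 2 of H3K27me3 at 24 w.p.i., Daxx-KO replicate 2 of H3K9me3 at 24 w.p.i. and, in depth, DKO replicate 2 of H3K9me3 at 8 w.p.i. (0.2 reads per window) and the 2 WT libraries of H3.3 (22.9 and 3.06 reads per window) and Pu.1 (33.8 and 2.75) at 3 w.p.i. The results that rest on them are given with and without them below. The depth and cell mixture of each library move with these counts, and their part in the results was not tested; fewer cells of a type and less signal per cell cannot be told apart in bulk chromatin.

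The label of Polycomb targets was first checked against the level of the mark. In the 24-week table the listed member sites carried a median of 558 normalized counts of H3K27me3 per kb, against 84.8 over all listed sites. At 8 w.p.i. the medians were 152 against 30.4 in the comparison of DKO with WT and 146 against 32.8 in that of DKO with Daxx-KO. H3K27ac went the other way, with 16.0 against 22.4 per kb at 3 w.p.i. and 58.6 against 78.2 at 24 w.p.i. The member loci were thus rich in H3K27me3 and poor in H3K27ac among the listed sites, as the label says.

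At 24 w.p.i. Daxx-KO HSPCs carried less H3K27me3 than WT at most of the member sites that separated the groups, by small factors. Of 291 listed sites in 47 loci, 161 were lower in Daxx-KO, 88 were higher and 42 overlapped. Higher sites made up 35.3% (29.7 to 41.5%) of those without overlap, against 41.8% over all 130745 listed sites without overlap. The median log2 ratio of the group averages, after adding 1, was −0.34 at the members and −0.81 over all listed sites. Member sites thus lay lower by a smaller ratio than listed sites in general, on a denser mark, and in the whole table sites with more counts were listed at smaller ratios.

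The difference from the other sites was widest where the mark was dense, in thresholds that were added after seeing the data. Among sites with at least 200 normalized counts per kb in the higher group, 58 member sites were higher and 114 lower in Daxx-KO (33.7% higher, 27.1 to 41.1%), whereas 10984 of all listed sites were higher and 7833 lower (58.4%). At 400 counts per kb the members had 37 higher and 98 lower (27.4%, 20.6 to 35.5%) against 55.2% over all listed sites. At 100 counts per kb the shares were 35.6% and 52.0%. Without WT replicate 2, the members had 81 higher and 116 lower at 200 counts per kb (41.1%, 34.5 to 48.1%) against 60.8% over all listed sites, and 37.7% (30.6 to 45.5%) against 61.2% at 400. Densely marked sites were thus more often higher in Daxx-KO over all listed sites and more often lower at the members, with or without that library. Other developmental regulators were not counted at these limits, so the contrast cannot be read as particular to the members.

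WT replicate 2 was the high library here, and the shallower WT one, with 4.27 reads per window against 9.58. Summed over the member sites, the normalized counts were 132957 and 126319 for Daxx-KO and 136645 and 165458 for WT. Without WT replicate 2, 112 member sites were higher and 165 lower, or 40.4% (34.8 to 46.3%) against 42.2% over all sites, so that the interval then held the background. Without WT replicate 1 it was 31.7%. Lower sites remained the more frequent in both cases.

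**Figure D1:**
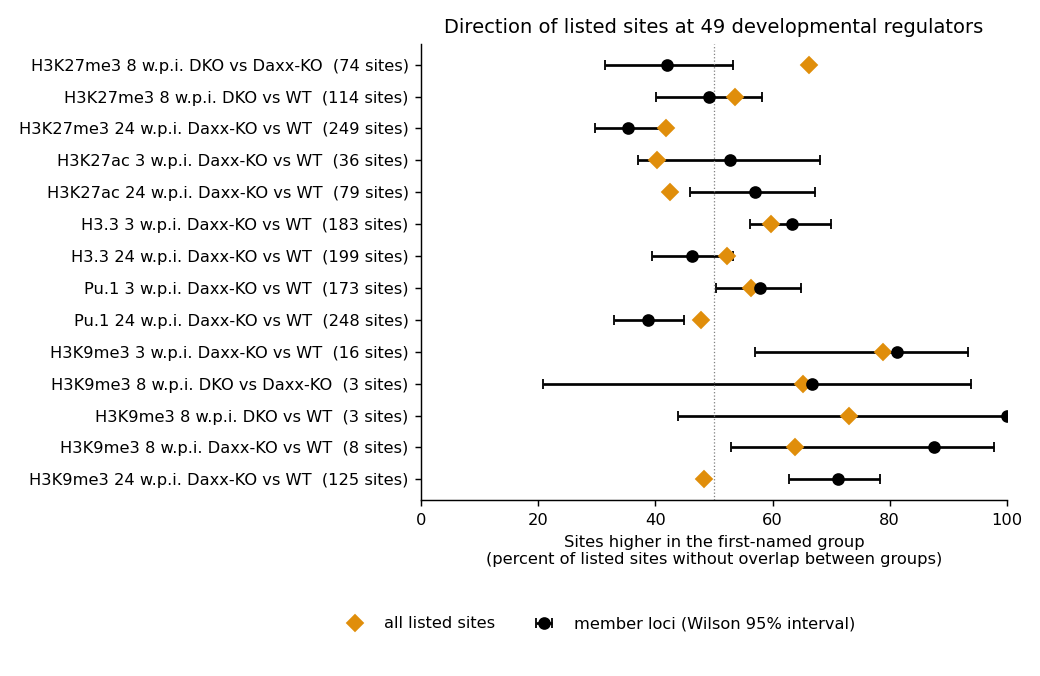
Percent of sites higher in the first group among listed sites whose groups do not overlap (horizontal axis), for each mark, time and comparison (vertical axis, with the number of member sites counted). Black points are the member loci with Wilson 95% intervals, orange diamonds all listed sites of the same table. Member sites of H3K27me3 at 24 w.p.i. sit at 35.3% against 41.8% over all listed sites, and those of H3K9me3 at 24 w.p.i. at 71.2% against 48.2%.

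The lower sites with the most signal included those at Lhx5, Otx2, Dlx2 and Lhx2. Lhx5, a LIM-homeodomain factor of the forebrain, had 2492 and 2420 normalized counts in Daxx-KO against 2696 and 3244 in WT just upstream of its start (chr5:120429451-120431450). At Otx2, which specifies forebrain and eye, an upstream site (chr14:48673851-48675800) had 1958 and 1942 in Daxx-KO against 2064 and 3023 in WT. At Dlx2, a homeodomain gene of forebrain interneurons and the jaw, an exonic site (chr2:71542601-71543750) had 1857 and 1868 against 2168 and 3243. In each of these WT replicate 1 lay nearer to the Daxx-KO libraries than to WT replicate 2. Lhx2, needed for the eye and forebrain, differed with both WT libraries apart: an intronic site (chr2:38347551-38349250) had 1965 and 1816 in Daxx-KO against 2299 and 2586 in WT. Pax9, of the teeth and pharyngeal pouches, was lower over the internal promoter printed above (chr12:56695001-56695800), with 921 and 895 in Daxx-KO against 972 and 1274 in WT. Here too WT replicate 2 was the library that stood off.

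The higher sites with the most signal differed as little. A site downstream of Tbx2, a T-box repressor of heart and limb (chr11:85844801-85845400), had 1273 and 1262 in Daxx-KO against 812 and 1179 in WT. The heart factor Nkx2-5 had 1209 and 1085 against 988 and 982 in an intron (chr17:26842351-26843550). Lhx5 had 1086 and 1129 against 949 and 1071 (chr5:120436601-120437300), and Lhx2 1096 and 1102 against 1050 and 1002 (chr2:38352201-38353100). Lhx5 and Lhx2 thus held lower and higher sites within the same gene. Of the 88 higher sites 17 differed by 2-fold or more, and of the 161 lower sites 29.

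**Figure D2:**
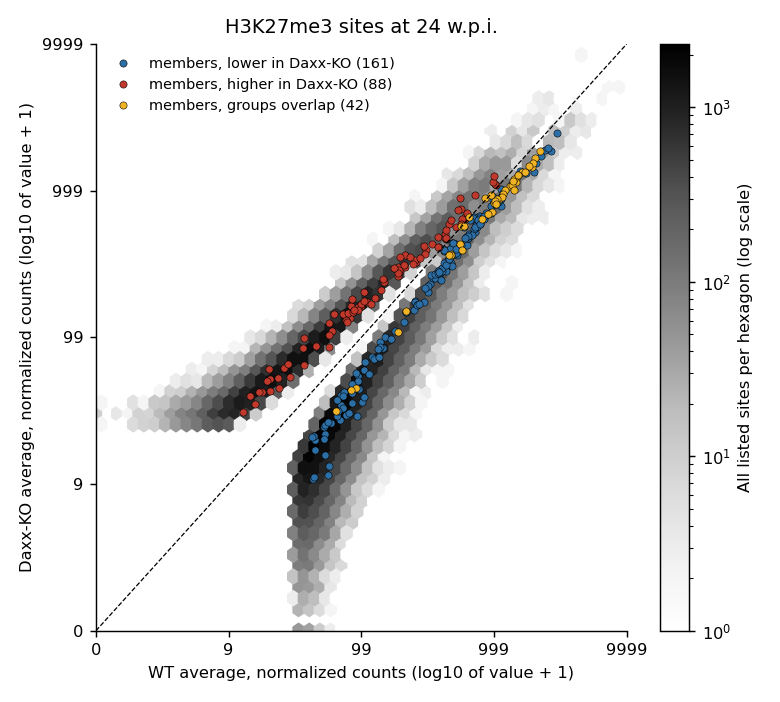
Daxx-KO average against WT average of H3K27me3 at 24 w.p.i. at each listed site, in normalized counts on log10 axes after adding 1, with member sites as coloured points, all listed sites as grey hexagons and equality dashed. The 161 lower member sites lie below the dashed line and the 88 higher ones above it, and they gather toward the top right, where listed sites lie close to that line.

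Most loci held sites of both kinds. Of the 49 members, 32 had more lower than higher sites, 8 had more higher than lower, 7 had equal numbers, and Sox17 and Foxa2, factors of the endoderm, had no listed site. Lower sites alone were present in 16 loci and higher sites alone in 2. Among 43 member loci with at least 2 separating sites, 13 had only lower and 1 only higher ones (32.6% in 1 direction). Of 11966 protein-coding loci with at least 2, 4905 had only lower and 1053 only higher ones (49.8%). Loci with lower sites alone were thus the more frequent in general, and member loci were less often of 1 direction. The thyroid and lung factor Nkx2-1 had 4 sites, all lower, for example 276 and 256 against 337 and 337 at chr12:56527801-56528400. Lhx1, a factor of the kidney and head organizer, had 5 sites, all lower, the densest over its last exons (chr11:84518601-84520200) with 1508 and 1158 in Daxx-KO against 1883 and 2130 in WT.

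The 6 members with the greatest listed length fell on both sides. Pax7, the factor of muscle satellite cells, had 31 sites over 23.6 kb (22.1% of its locus), of which 18 were lower and 10 higher. Pax3, of neural crest and muscle precursors, had 11 lower and 1 higher, and Lhx2 had 9 lower and 2 higher. Pax2, of the kidney and midbrain, had 14 higher and 9 lower, and Lhx4, of the pituitary, had 10 higher and 6 lower. Wt1, a zinc-finger factor of the kidney and gonad, had 8 higher and 2 lower.

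Within Wt1 the directions followed position. Near its start the dense sites were lower in Daxx-KO, with 840 and 877 against 985 and 991 at chr2:105131751-105132800. In the distal introns the sparse sites were higher, with 199 and 206 against 98.96 and 107 at chr2:105157501-105159000. At 61.4 and 68.1 against 25.2 and 28.6 (chr2:105159601-105160400), the fold was 2.41. At Pax3, by contrast, the sites close to the start and those far inside were both lower, from 542 and 592 against 735 and 710 upstream (chr1:78197651-78199150) to 9.57 and 10.1 against 40.1 and 44.3 in an intron (chr1:78174751-78175400).

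Over all members, the lower sites lay a median of 7.37 kb from the gene start and carried a median of 306 counts in Daxx-KO and 422 in WT. The higher sites lay a median of 17.6 kb away and carried 254 and 161. These distances were not adjusted for locus length, and a few long loci supplied many of the sites. Pax2, Lhx4, Pax7 and Wt1, of 91.8, 63.7, 106 and 57.1 kb against a median of 16.9 kb, held 14, 10, 10 and 8 higher sites. The same loci held 9, 6, 18 and 2 lower ones. The part of locus length in the difference was not tested. The 42 sites with overlapping groups were the densest, at 885 and 1044, and included 5 of the 6 sites that spanned a gene start. At the gene starts themselves the listed sites therefore did not separate the groups, except 1. Sites inside the member loci held a median of 8 CpG per 500 bases where lower and 6 where higher, against 6 and 5 over all listed sites.

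**Figure D3:**
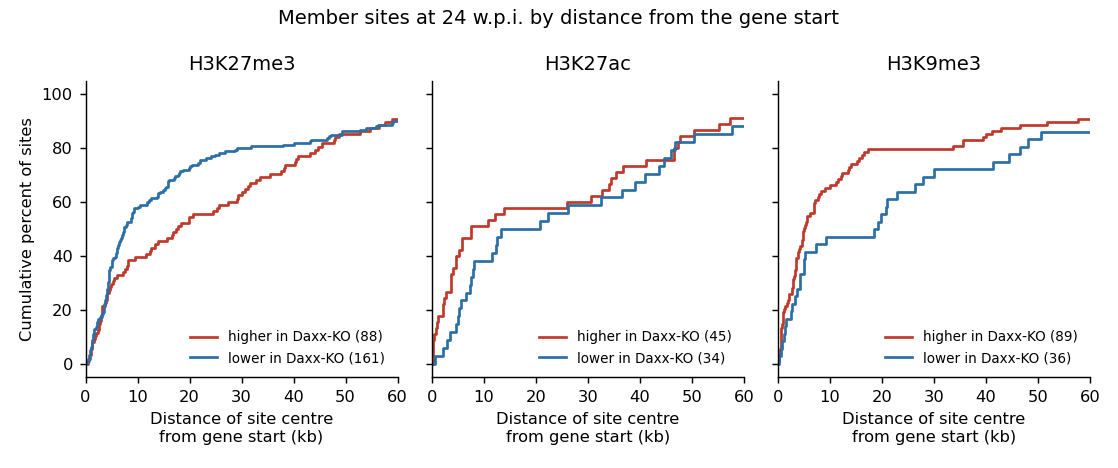
Cumulative percent of the member sites that separate Daxx-KO from WT at 24 w.p.i. (vertical axis) by distance of the site centre from the gene start in kb (horizontal axis, cut short of the farthest sites), for 3 marks, with higher sites in red and lower sites in blue. Lower H3K27me3 sites have a median distance of 7.37 kb and higher ones 17.6 kb, while for H3K27ac and H3K9me3 the higher sites are the nearer ones, at 7.52 and 5.08 kb. Distances are not adjusted for locus length.

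At 8 w.p.i. the H3K27me3 libraries compared DKO with WT and with Daxx-KO. The comparisons share the DKO libraries, so their values are only set side by side, and the direct comparison of Daxx-KO with WT is not analysed here because its table was made with H3K9me3 libraries as controls. Against WT, 56 of 177 member sites in 39 loci were higher in DKO, 58 were lower and 63 overlapped. Higher sites were 49.1% (40.1 to 58.2%) of those without overlap, against 53.6% over all listed sites. Against Daxx-KO, 31 of 144 sites in 40 loci were higher, 43 lower and 70 overlapped, or 41.9% higher (31.3 to 53.3%) against 66.3%. That last share moved with the way of counting: it was 24.3% of 144 sites with the direction taken from group averages, 53.8% of 52 sites over gene bodies alone, and 9.09% of 11 sites within 5 kb of the gene start, where sites at all protein-coding genes stood at 60.5%.

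DKO replicate 1 stood apart over the member loci. Its sites in the comparison with WT summed to 33643 normalized counts, against 16250 and 16250 in the other DKO libraries and 18552, 17870 and 17753 in WT. Without it, 58 sites were higher and 69 lower than in WT (45.7%, 37.3 to 54.3%; all sites 54.8%), and 33 were higher and 87 lower than in Daxx-KO (27.5%, 20.3 to 36.1%; all sites 67.1%). Against Daxx-KO, lower member sites thus numbered 87 without this library and 43 with it. Leaving out Daxx-KO replicate 2 gave 33 higher and 66 lower.

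**Figure D4:**
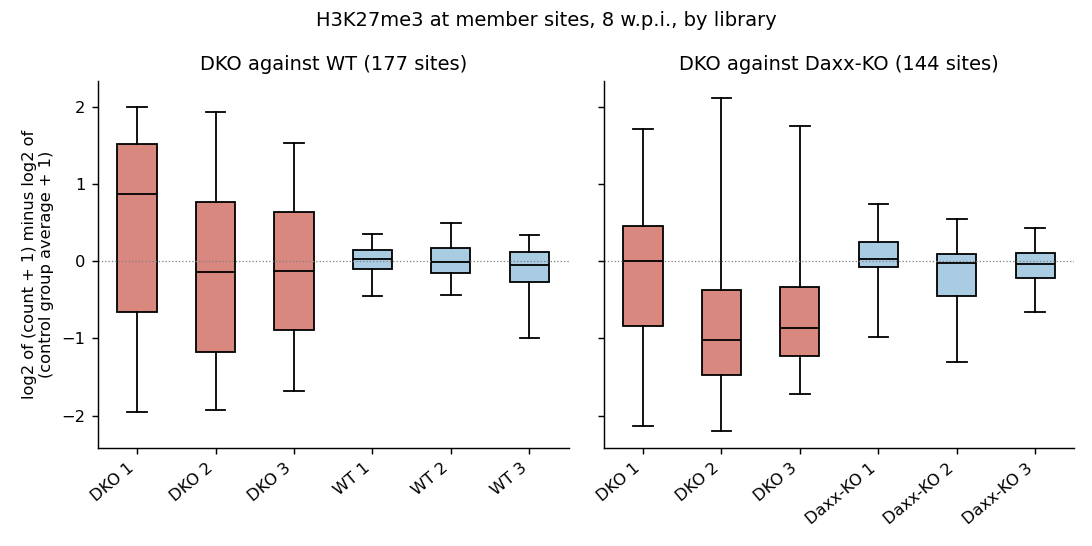
H3K27me3 at 8 w.p.i. over the member sites in each library (horizontal axis), as log2 of the normalized count plus 1 minus log2 of the control group's average plus 1, with the median (line), quartiles (box) and 5th to 95th percentiles (whiskers). The box of DKO replicate 1 sits above those of DKO replicates 2 and 3 in both comparisons.

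At the heart and limb gene Tbx2 this library decided the result. All 12 listed sites there overlapped between DKO and WT, with sums of 6854, 1875 and 1874 in DKO and 1825, 1732 and 2194 in WT, as at chr11:85830101-85831650 with 1147, 316 and 315 in DKO and 288, 258 and 368 in WT. At Nkx2-5 the sites over the gene were of the same kind, with 1140, 303 and 429 against 427, 352 and 379 at chr17:26836001-26838950. Its gene start and upstream sites were higher in all 3 DKO libraries, with 437, 265 and 246 against 148, 164 and 159 (chr17:26844851-26846650), a 2.01-fold difference. The averages of DKO therefore overstate the gain at these loci, and the separate libraries have to be read.

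Of 33 members with a site separating DKO from WT, 15 had higher sites alone, 14 had lower sites alone and 4 had both. Among the 25 loci with at least 2 such sites, 21 had them all in 1 direction (84.0%), against 65.7% of 5140 protein-coding loci with at least 2. With exactly 2 sites the shares were 80.0% of 10 member loci and 80.1% of 1695 loci. Pax2 had 10 higher sites and none lower, with 55.5, 53.3 and 47.9 in DKO against 20.1, 16.3 and 29.1 in WT in an intron (chr19:44769251-44770350). Tbx5, of heart and forelimb, had 7 higher sites and none lower, up to 5.42-fold at chr5:119875001-119876150 with 21.51, 20.96 and 20.70 against 1.75, 5.43 and 4.47. Lhx2 and Dlx1 had 5 higher each and none lower.

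The strongest of the higher sites lay at Lhx1, Nkx2-5 and the Dlx pair. Downstream of Lhx1 (chr11:84513451-84517250), DKO had 1134, 462 and 599.3 against 390, 408 and 359 in WT. Upstream of Dlx1 (chr2:71526001-71527300) it had 457, 298 and 279 against 213, 164 and 215. At the start of Dlx2, over the promoter printed above (chr2:71546751-71548000), it had 311, 440 and 161 against 103, 109 and 154. The lowest DKO library lay above the highest WT library in each, at Dlx2 narrowly.

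Lower sites alone were found at Tbx15, Pax3, Pax1 and Tbx20, among others. Tbx15, a T-box gene of skeleton and muscle, had 10 lower sites, all intronic, with 156, 145 and 98.1 in DKO against 303, 265 and 216 in WT at chr3:99264501-99266050. Pax3 had 8 lower sites, such as 6.79, 14.9 and 13.1 against 40.2, 72.5 and 32.4 at chr1:78153001-78154200. Pax1, of the vertebral column, had 6 lower sites and Tbx20, of the heart, 5, neither with a higher one. Upstream of the Iroquois gene Irx1 (chr13:71965551-71968350) DKO had 300, 259 and 295 and WT 557, 534 and 387, and in its neighbour Irx2 (chr13:72631751-72633150) 222, 142 and 218 against 327, 347 and 341. The neural genes Otx2, with 205, 134.5 and 163 against 304, 303 and 321 across its start (chr14:48672451-48674600), and Sox2, with 224, 164 and 192 against 365, 307 and 273 downstream (chr3:34657051-34658700), were lower too.

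Against Daxx-KO, 16 member loci had lower DKO sites alone, 4 had higher sites alone and 6 had both. Among 15 member loci with at least 2 separating sites, 7 had only lower and 2 only higher ones. Of 4632 protein-coding loci with at least 2, 758 had only lower and 1807 only higher ones. Upstream of Nkx6-1, of spinal cord and pancreas (chr5:101665451-101666100), DKO had 197, 192 and 132 and Daxx-KO 518, 214 and 282. There Daxx-KO replicate 1 stood far above the others, and the lowest Daxx-KO library only narrowly above the highest DKO one. Pax3 had 6 lower sites and 1 higher, while Pax7 had 7 higher and 1 lower. Upstream of Pax8, of the thyroid and kidney (chr2:24480051-24480700), DKO had 86.6, 77.4 and 93.1 and Daxx-KO 48.6, 56.5 and 42.1. Among sites with at least 200 counts per kb, 11 member sites were lower in DKO than in Daxx-KO, 0 were higher and 47 overlapped. The share of 0% (0 to 25.9%) stood against 13.6% over all listed sites of that density, where 37 were higher and 235 lower. The interval held this background.

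H3K27ac showed few sites at these genes and more gains than the table as a whole. At 3 w.p.i. 37 member sites were listed in 21 loci, of which 19 were higher in Daxx-KO, 17 lower and 1 overlapping, or 52.8% higher (37.0 to 68.0%) against 40.3%. At 24 w.p.i. 79 sites were listed in 33 loci, with 45 higher and 34 lower, or 57.0% (46.0 to 67.3%) against 42.5%. The higher sites at 24 w.p.i. had a median of 33.6 normalized counts in Daxx-KO against 7.31 in WT, and the lower sites 11.4 and 52.9. The lower bounds of the intervals stood below the background at 3 w.p.i. and above it at 24 w.p.i.

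The gains at 24 w.p.i. lay nearer to the gene starts than the losses, with medians of 7.52 and 17.0 kb, and 4 gains but no loss spanned a gene start. Foxd3, a neural crest factor, had 68.9 and 52.7 in Daxx-KO against 38.0 and 2.37 in WT over its promoter (chr4:99655601-99656500). Neurog2, a proneural bHLH factor, had 24.0 and 29.3 against 2.23 and 2.37, and the neural factor Sox21 had 45.0 and 26.4 against 10.1 and 0.79 over the promoter printed above (chr14:118236801-118237700). Within 5 kb of the gene start 19 of 26 member sites were higher (73.1%), against 50.1% of 35253 sites within 5 kb of any protein-coding gene's start. These are low counts beside the 357 and 480 of the strongest member site, an exonic one of Pax8 far from its start (chr2:24427601-24430250; WT 210 and 189).

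Other gains were at Lhx1, Pax7 and Foxa1. Foxa1, a pioneer factor of endoderm, had 67.4 and 55.6 against 14.5 and 18.2 upstream (chr12:57549101-57550150). Pax7 had 62.9 and 61.5 against 22.3 and 29.3 (chr4:139746801-139747650), with 8 higher and 2 lower sites in its locus. Losses were as strong at other genes: Sox10, of neural crest and glia, had 20.98 and 24.88 against 150 and 111 downstream (chr15:79151901-79153400), and Tbx5, with 5 lower sites and none higher, had 26.98 and 11.71 against 80.4 and 123 in an intron (chr5:119854401-119855550). A lower site counted for Lhx1 (chr11:84512851-84513600; 93.7 and 93.7 against 174 and 158) lay over the neighbouring gene Aatf. A lower site of Pax8 (chr2:24430451-24431450; 41.2 and 20.5 against 59.2 and 108) lay next to its strongest gain.

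At 3 w.p.i., in other mice, the named sites were sparser. Pax7 had 23.3 and 70.5 in Daxx-KO against 6.45 and 2.21 in WT in an intron (chr4:139794451-139795450). Just downstream of Wt1 (chr2:105174301-105175100) the values were 36.8 and 44.2 against 19.3 and 17.7. An intron of Lhx2 (chr2:38349651-38350500) had 5.81 and 34.0 where both WT libraries were at 0. At Lhx1 a downstream site over the neighbouring gene Aatf (chr11:84513151-84514100) was lower, with 15.5 and 8.5 against 16.1 and 67.3. Here WT replicate 1 lay beside the Daxx-KO libraries. Only 4 pairs of member sites overlapped between the 3-week and 24-week tables, of which 2 kept their direction (Wt1, and Lhx1 over Aatf) and 2 reversed it (Tbx1, Pax7).

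Because both marks sit on the same lysine, their sites were set side by side in the 4 mice of 24 w.p.i. Of 32 members with separating sites of both marks, 29 held sites of H3K27me3 and H3K27ac that went opposite ways: 24 had lower H3K27me3 with higher H3K27ac, 14 had the reverse and 9 of these had both. The first kind alone was seen at Lhx1, Lhx2, Dlx1, Dlx2, Tbx1, Tbx2, Tbx15, Neurog2, Foxd3, Foxf1, Foxa1, Nkx6-1, Hand1, Otx2 and Sox21, and the second alone at Nkx2-2, Gsx2, Tbx5, Lhx5 and Olig2. Pax2, Pax3, Pax7, Pax8, Lhx4, Lhx9, Wt1, Sox9 and Sox10 had both. The 29 loci made up 90.6% of the 32, against 93.4% of 15122 protein-coding loci with sites of both marks. Sites that went the same way stood at 26 of the same 32 loci (81.3%), against 93.7% of the 15122 protein-coding loci. Of the 47 loci with a separating H3K27me3 site 29 held them in both directions, against 6008 of 16172 protein-coding loci. Most of the member sites lay apart within the locus: 19 pairs overlapped directly, of which 11 went opposite ways and 8 the same way, and among all listed sites 52.8% of 38878 overlapping pairs went opposite ways.

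Lhx1 gave the plainest overlap. Over its last exons H3K27me3 was 1508 and 1158 in Daxx-KO against 1883 and 2130 in WT (0.664-fold). On the same stretch H3K27ac was 70.4 and 60.01 against 3.35 and 24.5 (chr11:84519101-84520250, 4.68-fold). Pu.1 was 210 and 270 against 60.5 and 8.42 (chr11:84519001-84520300, 6.96-fold). All 3 came from the same 4 mice, and none of them overlapped between the groups.

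**Figure D5:**
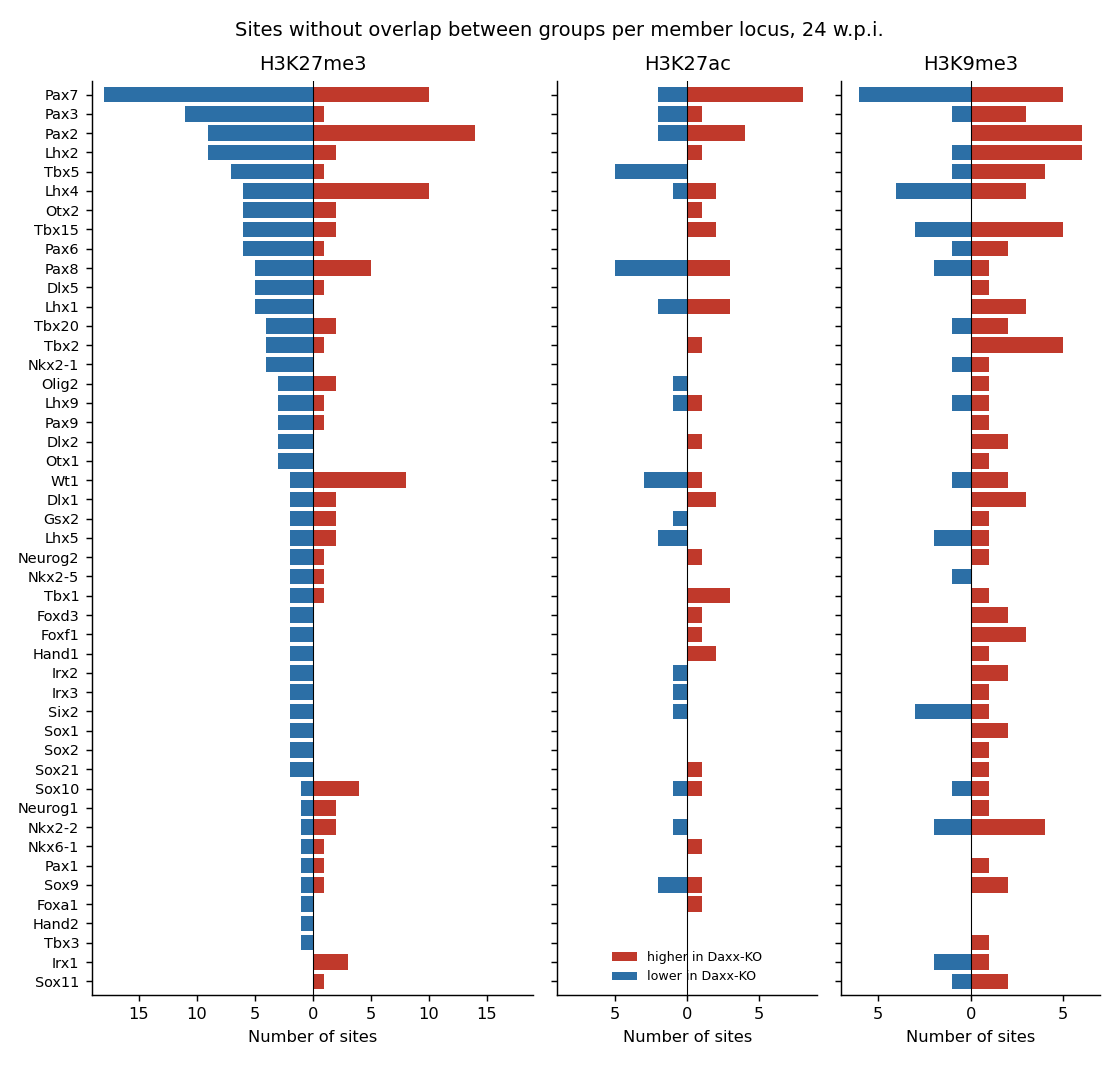
Number of sites higher (right) and lower (left) in Daxx-KO than in WT at 24 w.p.i. for the 47 member loci with a listed H3K27me3 site (rows), for H3K27me3, H3K27ac and H3K9me3 (panels). Over all members, more loci have mostly lower than mostly higher sites of H3K27me3 (32 against 8) and mostly higher than mostly lower sites of H3K9me3 (33 against 8).

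In H3K9me3 at 24 w.p.i. most member sites were higher in Daxx-KO, where the table as a whole was near balance. There 131 sites were listed in 44 loci, with 89 higher in Daxx-KO, 36 lower and 6 overlapping, or 71.2% higher (62.7 to 78.4%) against 48.2% over all listed sites. The same share was 56.5% over sites at protein-coding loci. Daxx-KO replicate 2 was the high library, with member sites summing to 7714 normalized counts against 4275 in replicate 1 and 4210 and 2319 in WT. Without it 89 sites were higher and 38 lower, and leaving out any single library gave 69.5 to 71.7% higher. Of the members 33 had more higher than lower sites, 8 more lower than higher and 3 equal numbers.

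The gains were of low signal, CpG-rich and close to the genes. The higher sites had a median of 52.8 normalized counts in Daxx-KO against 7.77 in WT, lay a median of 5.08 kb from the gene start and held a median of 15 CpG per 500 bases, against 5 at all higher H3K9me3 sites of the table. The lower sites lay a median of 18.8 kb away and held 8.5. Repeats covered 12.9% of the windows at member sites and 34.8% at all listed sites. Of the 89 higher sites 6 spanned a gene start and 30 more an exon, and of the 36 lower sites 2 spanned a start and 7 more an exon.

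At Tbx1, of the pharyngeal arches, H3K9me3 across the gene start (chr16:18589101-18591100) was 96.9 and 263 in Daxx-KO against 66.8 and 18.7 in WT. In the same mice Pu.1 just inside the gene (chr16:18588751-18590050) was 32.7 and 25.1 against 176 and 175. Lhx4 had 82.9 and 112 against 0 and 6.56 over the internal promoter printed above (chr1:155741851-155743500). Pax2 had 93.7 and 115 against 21.8 and 40.3 (chr19:44760601-44761650), Foxf1, of lung and gut mesenchyme, 58.7 and 146 against 3.11 and 13.1 (chr8:121084651-121085850), and Pax8 99.5 and 113 against 48.2 and 3.75 (chr2:24435301-24437000). The mice of a genotype differed widely at several of these sites while the groups stayed apart.

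Losses were fewer. Sox11, a neural SoxC factor, had 0 and 12.5 in Daxx-KO against 83.9 and 82.5 in WT across its start (chr12:27340951-27342600). Tbx15 had 28.1 and 27.1 against 137 and 62.8 in an intron (chr3:99348101-99349150). Upstream of Lhx5 (chr5:120429751-120430550), where H3K27me3 was lower as well, H3K9me3 was 20.4 and 0 against 140 and 22.5. Over the 27 overlapping pairs of member sites of H3K27me3 and H3K9me3 at 24 w.p.i., 19 went opposite ways and 8 the same way, against 57.0% of 20009 pairs that went opposite ways among all listed sites.

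At the earlier times H3K9me3 sites were rare at these genes and, in Daxx-KO against WT, most frequent at Tbx15, the longest member locus. At 3 w.p.i. 16 sites were listed in 9 loci, 13 higher in Daxx-KO and 3 lower, or 81.3% higher (57.0 to 93.4%) against 78.8%. At 8 w.p.i. Daxx-KO against WT gave 7 higher and 1 lower in 3 loci, or 87.5% (52.9 to 97.8%) against 63.8%. DKO gave 3 higher, 0 lower and 2 overlapping against WT (100%, all sites 73.1%) and 2 higher, 1 lower and 1 overlapping against Daxx-KO (66.7%, all sites 65.1%). Without the shallow DKO replicate 2 these became 5 higher and 0 lower against WT, and 3 higher and 1 lower against Daxx-KO. With so few sites the intervals held the background in each table in which both directions occurred.

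In Daxx-KO against WT, Tbx15 supplied 4 of the 13 higher sites at 3 w.p.i. and 6 of the 7 at 8 w.p.i. Of these 10, 9 lay in the distal part of the gene, more than 70 kb from its start. Its locus is the longest of the members, at 124 kb, and the other loci with sites at 8 w.p.i., Pax3 and Wt1, were of 106 and 57.1 kb. The counts were not adjusted for length. At 3 w.p.i. an intronic site (chr3:99346251-99347550) had 24.4 and 40 in Daxx-KO against 1.75 and 0.58 in WT. At 8 w.p.i. the neighbouring intronic site (chr3:99349251-99349850) had 22.6, 22.1 and 8.02 against 7.90, 0 and 1.25. In DKO against Daxx-KO that stretch (chr3:99349251-99349950) was at 0 in all 3 DKO libraries and at 13.4, 12.0 and 4.61 in Daxx-KO, where the DKO libraries had 0.69, 0.2 and 3.29 reads per window, and the first and second of these were shallow. By 24 w.p.i. the locus held 5 higher and 3 lower sites, and the direction was no longer the same across it.

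A site of H3K9me3 at Pax3 separated DKO from both other groups, and one at Wt1 only from Daxx-KO. In Pax3 (chr1:78122601-78123550) DKO had 28.5, 9.81 and 18.2 against 3.47, 6.99 and 0 in Daxx-KO, and, scaled in the other table, 30.2, 10.4 and 19.2 against 0.45, 0 and 3.58 in WT. Downstream of Wt1 (chr2:105174151-105175200) Daxx-KO had 9.94, 3.68 and 5.35 and WT 21.3, 22.8 and 20.0. Where DKO was compared with Daxx-KO there (chr2:105174301-105175500), it had 40.7, 6.54 and 37.9 against 5.96, 2.0 and 6.15. The lowest DKO value at both sites was that of the shallow DKO replicate 2. It was 9.81 against at most 6.99 in Daxx-KO at Pax3, and 6.54 against at most 6.15 at Wt1. Both gaps from Daxx-KO thus rest on few reads of that library. Against WT (chr2:105174401-105175500) the values overlapped, with 43.1, 6.91 and 39.9 in DKO and 12.6, 16.75 and 12.2 in WT. H3K27me3 on this stretch was also higher in DKO than in WT at 8 w.p.i. (chr2:105174201-105175150; 82.6, 93.5 and 121 against 49.9, 41.7 and 68.2).

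The remaining targets, the histone variant H3.3 and the transcription factor Pu.1, had more listed sites here. H3.3 at 3 w.p.i. had 116 sites higher in Daxx-KO, 67 lower and 2 overlapping in 45 loci, or 63.4% higher (56.2 to 70.03%) against 59.7%. At 24 w.p.i. it had 92 higher, 107 lower and 5 overlapping in 48 loci, or 46.2% (39.4 to 53.2%) against 52.2%. Pu.1 had 100 higher, 73 lower and 3 overlapping at 3 w.p.i. in 46 loci (57.8%, 50.4 to 64.9%, against 56.4%), and 96 higher, 152 lower and 6 overlapping at 24 w.p.i. in 47 loci (38.7%, 32.9 to 44.9%, against 47.8%). Of these 4 intervals only that of Pu.1 at 24 w.p.i. left the background out.

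The early gains of H3.3 and Pu.1 were CpG-rich and near gene starts. At 3 w.p.i. the higher H3.3 sites held a median of 14 CpG per 500 bases and the lower ones 8, against 7 and 4 over all listed sites, and for Pu.1 the medians were 17 and 6 against 7 and 4. Higher Pu.1 sites lay a median of 6.1 kb from the start and 8 spanned it, while lower ones lay 19.3 kb away and none did. The WT libraries of both targets at 3 w.p.i. differed widely in depth, as given above. Leaving out either one moved the share of higher sites to no less than 62.7% and no more than 63.6% for H3.3, and 57.5 and 58.3% for Pu.1.

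H3.3 was prominent within Pax7 and at Sox10. In Pax7 an intronic site had 170 and 143 in Daxx-KO against 84.1 and 20.95 in WT at 3 w.p.i. (chr4:139759701-139761000), and another had 276 and 242 against 14.8 and 32.0 at 24 w.p.i. (chr4:139782901-139784400, 11.1-fold). On that second stretch Pu.1 was higher at 3 w.p.i., with 156 and 152 against 96.6 and 25.6, and H3K27ac at 24 w.p.i., with 25.5 and 32.2 against 6.7 and 7.12. Downstream of Sox10 H3.3 was higher at 3 w.p.i. (163 and 124 against 71.5 and 15.7, chr15:79151851-79153100) and, in part, at 24 w.p.i. (177 and 149 against 6.46 and 77.1, chr15:79151301-79152200). H3K27ac and Pu.1 there were lower in Daxx-KO at 24 w.p.i., the latter with 11.6 and 39.7 against 137 and 176 (chr15:79151251-79152750).

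Lower H3.3 at 24 w.p.i. was clearest upstream of Six2, of nephron progenitors (chr17:85689901-85691100), with 15.5 and 52.1 against 175 and 184. Lower Pu.1 was clearest in Pax1 (chr2:147363851-147366250), with 39.5 and 16.7 against 210 and 277, and downstream of the neural gene Sox1 (chr8:12402851-12405000), with 22.5 and 6.27 against 176 and 189. Upstream of Hand1, of the heart (chr11:57833051-57834250), Pu.1 was at 1.36 and 0 against 122 and 127. A second site less than 2 kb further up (chr11:57835801-57836900) was higher in Daxx-KO, with 40.9 and 305 against 0 and 24.2. That Hand1 gain rests largely on Daxx-KO replicate 2.

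Pu.1 belongs to the ETS family, whose members bind words around GGAA. The word GAGGAAGT, searched on both strands in 500-base windows, stood in 10 of 254 member sites of the 24-week table (3.94%) and in 3.47% of all its sites, and in 5 of 176 at 3 w.p.i. (2.84%) against 3.51%. This describes the letters in these windows only. At 3 w.p.i. H3.3 and Pu.1, profiled in the same mice, went the same way at 42 of 53 overlapping pairs of member sites, and at 24 w.p.i. at 30 of 72, against 78.8% and 50.6% of the pairs over the whole tables.

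Other gene lists put the members in context. Of 51 further developmental regulators, such as Gata4, En1 and Isl1, H3K27me3 sites at 24 w.p.i. were higher in 65 cases, lower in 148 and overlapping in 31 (30.5% higher), H3K27ac sites higher in 50 and lower in 35 (58.8%) and H3K9me3 sites higher in 65 and lower in 36 (64.4%). These shares lay on the same side of the background as those of the members for all 3 marks. At 18 HSPC genes such as Kit, Runx1 and Gata2, H3K27me3 was higher at 32 sites and lower at 95 (25.2%) and H3K9me3 higher at 55 and lower at 19 (74.3%), so neither direction was particular to developmental regulators. Nor was that of H3K27ac: at 24 w.p.i. 256 sites of the HSPC genes were higher and 222 lower (53.6%), those of mature-cell markers were 31 higher and 24 lower (56.4%), and those of stroma and endothelium 42 higher and 40 lower (51.2%), all above the 42.5% of the table.

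Genes of the Polycomb machinery and of H3K27 demethylation, 32 in all, had H3K27me3 sites higher in 28 cases, lower in 71 and overlapping in 10 at 24 w.p.i. (28.3% higher), and in DKO against WT higher in 26, lower in 1 and overlapping in 18. At Jarid2, a cofactor of complex 2 (chr13:44869051-44870550), Daxx-KO had 3368 and 3452 against 1966 and 2367 in WT, and at Cbx6 (chr15:79831401-79836500) 2297 and 2016 against 1121 and 1426. In DKO, Cbx7 (chr15:79932201-79935850) had 780, 415 and 236 against 161, 176 and 211, with DKO replicate 1 again the highest. Ezh1, a methyltransferase of complex 2 (chr11:101230651-101232850), had 285, 99.6 and 59.9 against 36.7, 48.9 and 42.5, and Rybp, of complex 1 (chr6:100288751-100290100), had 42.7, 102 and 130 in DKO against 31.3, 23.9 and 24.4 in Daxx-KO.

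Markers of the cells in the sort were checked beside these results. The HSPC genes carried 305 listed H3K27ac sites at 3 w.p.i., which summed to 22542 and 26247 normalized counts in Daxx-KO against 14996 and 13820 in WT, and 500 sites at 24 w.p.i., with 176403 and 179759 against 126524 and 129428. The 8 markers of stroma and endothelium summed to 573 and 793 against 597 and 685 at 3 w.p.i., and to 11653 and 11761 against 10141 and 9456 at 24 w.p.i. The 11 markers of mature lymphoid, myeloid and erythroid cells summed to 253 and 238 against 561 and 595 at 3 w.p.i., and to 22234 and 22268 against 13430 and 15104 at 24 w.p.i. Acetylation at mature-cell markers was thus lower in Daxx-KO at 3 w.p.i. and higher at 24 w.p.i., in listed sites only. Its part in the differences at the developmental genes was not tested.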

How the data were processed

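CUT&Tag libraries of H3.3, Pu.1, H3K27ac, H3K27me3 and H3K9me3 from mouse HSPCs were compared between genotypes. Per the submitters' processing notes, reads were demultiplexed (CASAVA 1.8.4), trimmed (cutadapt 1.13), aligned to mm10 (STAR 2.5.3) and handled with bedtools. Per the file headers, the authors then ran diffReps 1.55.6 (negative binomial test, 600-base windows, step 50, fragment size 100, window p cutoff 0.0001), so the deposited tables hold only differential sites, with a normalized read count per library (reads divided by 1 constant per library). Chromosomes X and Y had been removed at 24 w.p.i. The tables' own averages, fold changes and p-values of the authors' comparisons were not used.

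From these counts, sites overlapping each gene body with 5 kb on either side (GENCODE M21) were collected, and a site was called where the libraries of the groups did not overlap. Shares have Wilson 95% intervals, and ratios used group averages plus 1. Computation used Python 3.11.15, numpy 2.4.6, pandas 2.3.3, scipy 1.17.1 and matplotlib 3.10.9, and was tested on simulated data. Base composition was read in 500-base windows. Sites named in the text were, for each comparison and direction, mainly the 4 members with the highest average in the higher group, the 6 members with the greatest listed H3K27me3 length, members whose H3K27me3 and H3K27ac sites went opposite ways, and up to 4 Polycomb genes per H3K27me3 comparison, of which 1 is not reported here; further sites were chosen after their values were seen. The members and lists were chosen with earlier results of these data known. Groups follow the sample labels, and replicates are separate mice. Of 15 tables, 14 were used; the remaining one pairs H3K27me3 of Daxx-KO at 8 w.p.i. with H3K9me3 controls. The 8 DKO libraries of 24 w.p.i. were not analysed here.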

Additional observations from a re-analysis of the deposited data

Results flagged for a closer look

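Overlapping member sites whose libraries moved in opposite directions at separate times, in Daxx-KO against WT, were counted; the difference between times was not tested, and the times used separate mice. Between 3 and 24 w.p.i. H3K27ac had 2 such pairs, at Tbx1 and Pax7. H3.3 had 31 of 55 overlapping pairs and Pu.1 had 34 of 69. H3K9me3 had 2 between 3 and 24 w.p.i. and 1 between 8 and 24 w.p.i. The same counts over all listed sites were not made, so these cannot be read as particular to the member loci.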

How the results depend on the processing

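Of 166 alternatives over 14 shares of higher member sites, 149 stayed inside the interval of the reported share, 16 left it and 1 reversed. For H3K27me3 of DKO against Daxx-KO (41.9%), the share was 24.3% with direction taken from group averages, 53.8% over gene bodies alone, 9.09% within 5 kb of the gene start, 53.9% with 20 kb added, and 27.5 to 41.3% when leaving out each library. For DKO against WT (49.1%) it was 62.1% from group averages and 60% within 5 kb of the start. For H3K27me3 at 24 w.p.i. (35.3%) it was 41.5% with 20 kb added and 27.4% at 400 or more normalized counts per kb, and, leaving out WT replicate 2, 41.7% at 100 or more, limits chosen after seeing the data. Within 5 kb of the start it was 73.1% for H3K27ac at 24 w.p.i. and 71.1% for H3.3 at 3 w.p.i. With at least 20 normalized counts in the higher group it was 75.0% of 4 sites for H3K27ac at 3 w.p.i., and for H3K9me3 100% of 2 sites at 3 w.p.i., 100% of 1 site for DKO against Daxx-KO and 0% of 1 site for Daxx-KO against WT at 8 w.p.i., where gene bodies alone gave 100% of 6 sites. The cause was not tested, beyond the fewer sites left. Another 4 alternatives left no site. No paired analysis was possible because the results come from no test: each is a share of sites already listed by the study's caller, and the replicate numbers name separate mice.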
